A study of Homo sapiens with 16 samples.

Results

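The Sprouty genes SPRY1, SPRY2 and SPRY4 and the SPRED genes SPRED1, SPRED2 and SPRED3 encode inhibitors of the signalling route from growth factor receptors through RAS to the kinase ERK. They were taken by symbol from the platform annotation, using every probe set assigned to that gene alone. This gave 6 genes of 18132, with 17 probe sets of 44988. The measurements came from HEK293, an embryonic human kidney line, and all 16 arrays carried cells given a mineralocorticoid receptor (MR) expression plasmid at 500 ng per well for 24 h. The cells were then held for 4 h in 1 of 4 conditions, with 4 arrays each. These were vehicle, 100 nM deoxycorticosterone acetate (DOC, a mineralocorticoid), 10 nM of the phorbol ester PMA (an activator of protein kinase C), and DOC with PMA at the same doses. Every group carried the plasmid, so a steroid response cannot be set against cells without it. Replicates are biological by their labels, and the labels do not say more of their origin.

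Sprouty and SPRED proteins share a cysteine-rich C-terminal domain. Sprouty proteins bind adaptors and regulators of receptor signalling such as GRB2 and CBL, whereas SPRED proteins have an N-terminal EVH1 domain through which they bring neurofibromin, a RAS inactivator, to the membrane. Several of these genes are transcribed in response to ERK activity, which closes a negative feedback loop, and phorbol esters feed into the same route because protein kinase C activates RAS and RAF.

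The sequence upstream of 4 of the genes is shown because SPRY2, SPRED1 and SPRED2 moved together with PMA while SPRY1 moved the other way, as described below. Each is the 250 bases before the outermost annotated start site, from RefSeq on GRCh38.p14, written in the direction of transcription. Capitals mark matches to the motifs searched on both strands. These were an AP-1 site TGANTCA, the core TGACG of the cyclic AMP response element, an ETS factor site CCGGAA and a GC box GGGCGG. Also searched were AGAACA, which is only part of a steroid receptor site, and the CArG box of serum response factor. The SPRY2 window is chr13:80341127-80341376 on the minus strand, SPRED1 is chr15:38252586-38252835 on the plus strand, SPRED2 is chr2:65432600-65432849 on the minus strand and SPRY1 is chr4:123396545-123396794 on the plus strand.
SPRY2: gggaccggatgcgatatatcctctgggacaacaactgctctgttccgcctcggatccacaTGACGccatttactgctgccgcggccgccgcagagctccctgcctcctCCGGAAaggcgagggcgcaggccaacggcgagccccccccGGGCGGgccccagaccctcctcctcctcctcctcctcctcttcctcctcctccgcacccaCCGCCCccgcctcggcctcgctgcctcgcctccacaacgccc
SPRED1: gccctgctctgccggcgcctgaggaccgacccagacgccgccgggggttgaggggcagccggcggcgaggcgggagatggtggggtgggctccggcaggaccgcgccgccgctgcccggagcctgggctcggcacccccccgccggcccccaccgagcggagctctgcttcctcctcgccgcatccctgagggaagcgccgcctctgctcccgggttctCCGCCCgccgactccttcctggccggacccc
SPRED2: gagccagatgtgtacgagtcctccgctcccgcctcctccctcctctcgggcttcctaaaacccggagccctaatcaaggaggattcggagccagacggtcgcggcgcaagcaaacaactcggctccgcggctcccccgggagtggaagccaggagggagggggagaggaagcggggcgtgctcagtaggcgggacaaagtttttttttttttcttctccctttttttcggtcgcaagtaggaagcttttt
SPRY1: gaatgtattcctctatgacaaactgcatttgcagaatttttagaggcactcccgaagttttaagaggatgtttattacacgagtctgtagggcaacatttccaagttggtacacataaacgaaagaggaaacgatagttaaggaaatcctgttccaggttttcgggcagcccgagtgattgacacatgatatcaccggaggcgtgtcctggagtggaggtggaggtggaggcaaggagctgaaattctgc

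The SPRY2 window held 1 cyclic AMP element core, 1 ETS site and 2 GC boxes, and the SPRED1 window held 1 GC box. None of these motifs was found in the SPRED2 or SPRY1 windows above, though a second SPRY1 window held 1 ETS site and 2 GC boxes. For SPRY4 the only window in the table began inside the gene's annotated span, so only 30 bases around its cyclic AMP element core are given, chr5:142324298-142324327 on the minus strand.
SPRY4: tcttcggagccgTGACGgactgaattccct

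Over the 11 start-site windows listed for the 6 genes, 2 held the cyclic AMP element core, which occurs in 21.2% of 35116 windows of this length. An ETS site was in 2 (14.5% of all windows) and a GC box in 5 (42.6%). The partial steroid receptor site AGAACA was in 2 (12.4%), an AP-1 site in 1 (6.57%) and a CArG box in 0 (1.16%). The ETS sites lay in the outer SPRY2 window and in a second SPRY1 window, and the AP-1 site in a second window of SPRED3. A match is a description of the sequence, and no binding was measured here.

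Values are log2 RMA signals as deposited, where a difference of 1 is a doubling. Of 49293 probe sets, those at or above the 40th percentile of their array (4.05 to 4.12) on at least 4 arrays were kept, and the brightest kept probe set on average stood for its gene, which gave 12495 genes tested. Differences are given ± standard error (SE) from limma, and passing means a limma p under 0.05 after Benjamini-Hochberg adjustment across the 12495 genes. All 6 genes were tested. SPRY4 entered only through the 8 arrays of cells given PMA, with or without DOC, so a count over the 6 describes them and supports nothing more. Signals of different genes depend on their probes and are not compared with each other.

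In 3 arrays, replicate 2 of PMA, replicate 1 of DOC and replicate 2 of DOC plus PMA, the deviations from the group means ran alike over genes (correlations of 0.425 to 0.554). On these 3 arrays SPRY4, SPRED1 and SPRED2 all lay above their group means, by 0.14 to 0.44. Of 8 markers set down for HEK293, 7 were above every array median (4.91 to 4.96), and the exception was the kidney transcription factor PAX2 at 4.81 in vehicle. Of these 8 markers 5 passed for PMA against vehicle, a comparison in which 47% of all genes tested passed. The mean over the 8 ran from 8.95 to 9.15 on vehicle arrays and from 9.51 to 9.66 on PMA arrays. NEFM changed most, with a rise by 2.51. LHX1, KRT8 and KRT18 rose by 0.83, 0.79 and 0.77, and NEFL fell by 0.45. The signal of NR3C2, the gene for MR, averaged 7.43 in vehicle, 7.38 with DOC, 7.21 with PMA and 7.02 with both, and was lower with DOC plus PMA than with DOC by 0.36 ± 0.11 (adjusted p = 0.00993, limma). In the leukocyte list 2 of 5 markers (3 tested) passed for PMA against vehicle, and its mean over the 5 genes ran from 4.53 to 4.75 on vehicle arrays and from 4.70 to 4.85 on PMA arrays. In the endothelial list 4 of 5 (4 tested) passed, with array means of 4.14 to 4.36 and 4.37 to 4.50, and of 6 fibroblast markers (2 tested) 0 passed in limma, with array means of 3.16 to 3.38 and 3.29 to 3.45. PTPRC of the leukocyte list (2.18 in vehicle, 2.27 with PMA) and CDH5 of the endothelial list (2.97 and 3.00) lay below the 40th percentile. So did COL1A2 of the fibroblast list (2.90 and 3.05), and also ITGAM, COL3A1, DCN and THY1. The group means of CD68, CORO1A, TIE1, ESAM, COL1A1 and POSTN lay above it in vehicle, and that of PECAM1 with PMA. LCP1 of the leukocyte list (9.09 in vehicle, 9.25 with PMA) and EGFL7 of the endothelial list (5.72 and 5.53) were above every array median. They were the only ones of the 16 markers of other cell types to be so. The part of these shifts in the results was not tested, apart from refits without the 3 arrays.

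PMA against vehicle asks what the phorbol ester did without added steroid. SPRY2, SPRED1 and SPRED2 rose, by 4.58-fold, 3.29-fold and 1.74-fold, SPRY4 rose by at least 2.65-fold, SPRY1 fell, and SPRED3 did not pass. Across all genes 17.7% rose and 29.3% fell, 47% together, and among the 6 genes 4 rose and 1 fell. Without SPRY4, which was tested only because of its arrays with PMA, 3 of 5 rose and 1 fell. The PMA and vehicle arrays did not overlap in 5 of the 6 genes, SPRY4 among them, and in 42.2% of all genes. The median change was 1.26 over the 6 genes, 1.10 with SPRY4 at its lower bound, and -0.04 over all genes tested. Both scalings tried beside the deposited one kept these directions, while the share of called genes that were higher moved from 37.6% to 46.5% after cyclic loess and 55.4% with a common median.

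SPRY2, which restrains signalling from FGF and other receptors and binds the ubiquitin ligase CBL, had the largest measured rise of the 6. The rise of SPRY4 has only a lower bound, so the order of these genes is not settled. SPRY2 measured 6.40, 6.56, 6.71 and 6.82 on the vehicle arrays and 8.81, 8.81, 8.81 and 8.83 on the PMA arrays. Every PMA array lay far above every vehicle array, and the PMA arrays spread less (SD 0.011 against 0.18). The rise was 2.19 ± 0.07, or 4.58-fold (adjusted p = 8.98e-14, limma, n = 4 per group), rank 66 from the highest of 12495 genes. SPRY2 has 1 probe set, so no second probe set bears on this value.

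SPRY4, a family member known for restraining RAS activation downstream of receptor tyrosine kinases, was dim without PMA. Its vehicle arrays read 3.53, 3.34, 3.64 and 3.00, all below the 40th percentile of their array. The PMA arrays read 5.42, 5.72, 5.37 and 5.40, all above it. Against the 40th percentile of the vehicle arrays in place of its own dim signal, it rose by at least 1.40 on the log2 scale, or at least 2.65-fold. The means as measured were 5.48 with PMA and 3.38 with vehicle (difference 2.10 ± 0.16, adjusted p = 5.29e-09, limma), and the latter is not a level above the filter. Its other probe sets, 11736669_s_at and 11762359_x_at, stayed below the filter on every array, with means of 2.57 and 2.57 in vehicle and 2.75 and 2.57 with PMA. The response of SPRY4 therefore rests on 1 probe set of 3.

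SPRED1, the SPRED protein whose loss causes Legius syndrome, measured 6.15, 6.14, 6.47 and 6.61 on vehicle arrays and 7.88, 8.39, 7.89 and 8.07 on PMA arrays. The groups did not overlap. The rise was 1.72 ± 0.12, or 3.29-fold (adjusted p = 4.24e-09, limma), rank 104 from the highest. It was 1.61 without the 3 arrays that deviated together. All 4 kept probe sets of SPRED1 passed in a fit of the 28226 kept single-gene probe sets, of which 41.2% passed. Their rises were 1.77 ± 0.11 for 11734825_at, 1.72 ± 0.13 for 11734826_s_at, 1.36 ± 0.13 for 11734827_at and 0.76 ± 0.19 for 11734828_at. The last of these was kept through 4 arrays alone, all given PMA with or without DOC. The filter thus favoured a rise, and this probe set adds nothing to the others. Its PMA arrays (4.32, 3.43, 4.04 and 4.26) overlapped its vehicle arrays (3.74, 2.89, 3.23 and 3.13). The probe set 11734824_at was below the filter throughout, at 3.10 in vehicle and 3.19 with PMA.

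SPRED2, which like SPRED1 carries a domain that binds the receptor KIT, measured 7.58, 7.56, 7.78 and 7.62 on vehicle arrays and 8.37, 8.58, 8.30 and 8.49 on PMA arrays. Every PMA array lay above every vehicle array. It rose by 0.80 ± 0.09, or 1.74-fold (adjusted p = 1.02e-06, limma), and by 0.75 without the 3 arrays that deviated together. The second kept probe set, 11717655_a_at, rose by 0.60 ± 0.11 (adjusted p = 0.000209 over probe sets, limma). The probe set 11741055_a_at was below the filter, at 3.48 in vehicle and 3.57 with PMA.

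SPRY1, the Sprouty family member best known from kidney development, where it restrains RET signalling, moved in the opposite direction. It measured 6.82, 6.77, 6.90 and 6.74 on vehicle arrays and 6.24, 6.43, 6.40 and 6.51 on PMA arrays. All PMA arrays lay below all vehicle arrays. It fell by 0.41 on the log2 scale (SE 0.07), 1.33-fold lower (adjusted p = 9.53e-05, limma), and 29.3% of all genes fell. A second probe set with other values, 11717652_s_at, read 5.58, 5.85, 5.89 and 5.96 with vehicle and 4.99, 5.25, 4.85 and 5.44 with PMA, a fall by 0.69 (SE 0.12, adjusted p = 0.000213 over probe sets, limma). The third, 11738073_s_at, held exactly the same values as the second on all 16 arrays and was counted with it. The fall of SPRY1 was 0.33 on the log2 scale after cyclic loess and 0.32 with a common median, and it passed under both.

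SPRED3, which lacks a working KIT-binding domain, stayed at the edge of the filter. Its vehicle arrays read 4.12, 3.87, 4.19 and 4.06 and its PMA arrays 3.96, 4.31, 4.15 and 4.05, so the groups overlapped. The difference was 0.06 ± 0.09 (95% interval -0.12 to 0.24, adjusted p = 0.602, limma). Its second probe set, 11738951_a_at, averaged 2.06 in vehicle and 2.15 with PMA.

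**Figure D1:**
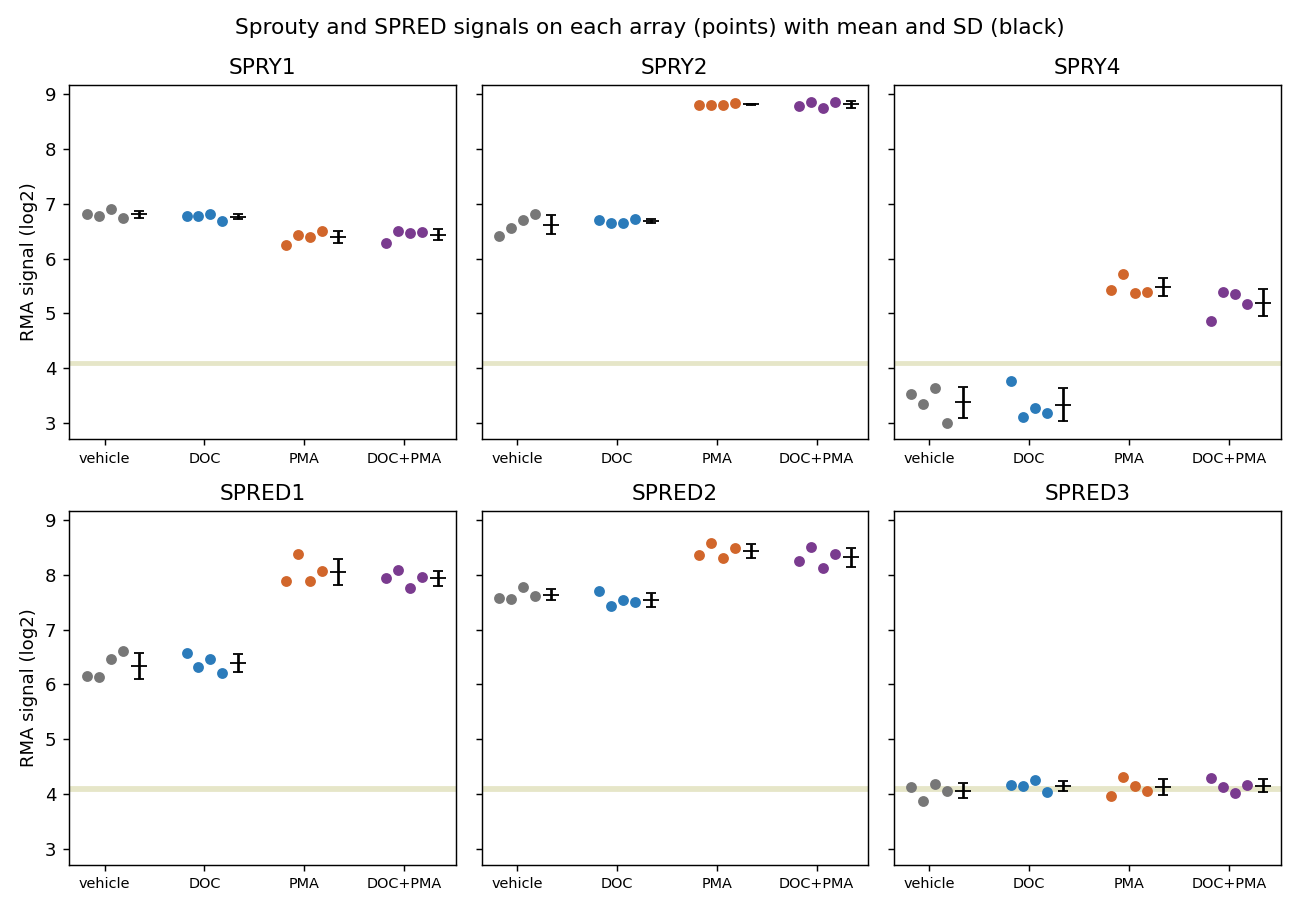
Log2 RMA signal (vertical axis) of the representing probe set of each gene on the 16 arrays, grouped by treatment (horizontal axis), with mean and SD of 4 arrays in black and the range of the arrays' 40th percentiles as a pale band. The PMA and DOC plus PMA arrays of SPRY2 lie between 8.74 and 8.87, against 6.40 to 6.82 without PMA, while SPRY1 is lower with PMA and SPRED3 lies around the band.

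Of the 16 probe sets with distinct values, 11 were kept, and 8 rose, 2 fell and 1 did not pass with PMA. The 5 below the filter differed by 0.004 to 0.18 between the PMA and vehicle means and were not tested. Of the 8 that rose, 11754344_s_at of SPRY4 and 11734828_at of SPRED1 were kept only through arrays with PMA.

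**Figure D2:**
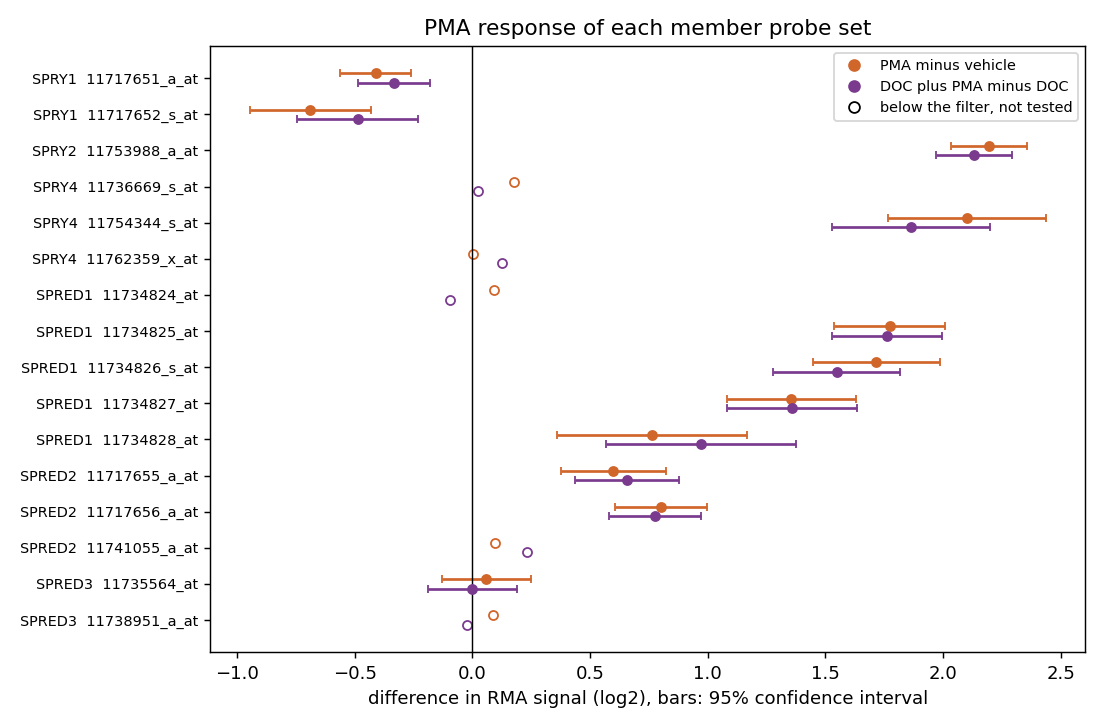
Difference in log2 RMA signal for PMA minus vehicle (orange) and DOC plus PMA minus DOC (purple) in the 16 distinct probe sets, filled with 95% intervals from limma where kept and open where below the filter. Filled points of SPRY1 lie left of 0, those of SPRY2, SPRY4, SPRED1 and SPRED2 right of it, and open points near 0.

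The sizes of the changes were compared between genes within arrays, over 15 pairs, by an exact two-sided permutation test of 4 PMA against 4 vehicle arrays, whose smallest possible p is 0.0286. In all 10 pairs that leave out SPRY4 the changes differed at this smallest p (adjusted p = 0.0330 over the 15 pairs, Benjamini-Hochberg, exact permutation test). For SPRY1 with SPRY2, SPRED1 or SPRED2 this was bound to follow, because the genes separated fully in opposite directions. It was also bound to follow for SPRED3 with SPRY2, SPRED1 or SPRED2, and for SPRED2 with SPRY2 or SPRED1. There the gap between the groups in the more changed gene exceeded the whole range of the other gene. Only for SPRY1 with SPRED3 and SPRY2 with SPRED1 was the smallest p not fixed in this way by the values above. SPRY2 rose by 0.48 more than SPRED1 and by 1.39 more than SPRED2, and SPRED1 rose by 0.92 more than SPRED2. The pairs with SPRY4 were computed and counted in the adjustment. Its rise has only a lower bound, so they are not read here. These are differences between probe sets, which can differ in how fully they report a change.

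The genes whose 4 group means followed a member most closely were found by the root mean square difference of centred means, over 12489 other genes and 16 arrays. Nearest to SPRY2 were the MAP kinase phosphatase DUSP1 (0.0369 log2 units), the pentraxin PTX3 (0.0484) and the sphingomyelin synthase SGMS2 (0.0524). SPRY4 was nearest to PMEPA1 (0.0360), an inhibitor of TGF-beta signalling, to the homeobox gene EN2 (0.0390) and to ARID5B (0.0523). The SPRY4 means with vehicle (3.38) and DOC (3.33) lay below the filter, so these distances rest in part on signals that are not levels. SPRED1 lay beside the NF-kB subunit RELB (0.0307), PGBD5 (0.0352) and LY6K (0.0373), and SPRED2 beside the collagen COL12A1 (0.0103), REEP3 (0.0213) and the keratin KRT18 (0.0233). The pattern of SPRY1 was matched by CYB561D2 (0.0049), the cell cycle factor E2F2 (0.0060) and XPO7 (0.0066). SPRED3, which hardly varied, had ELP3, CHMP5 and TRIR nearest, at 0.0028 to 0.0037.

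Around these genes, the pathway was read from lists set by role. Proteins that bind or regulate Sprouty and SPRED had 5 rises and 3 falls among 15 tested of 16 listed, with a median of 0.15. This is a share of 53.3%, near the 47% of all genes. CBL, the ubiquitin ligase bound by Sprouty, rose by 0.68 ± 0.12 (adjusted p = 0.000147, limma), the kinase TESK1 by 0.46 ± 0.12, and NF1, which encodes the neurofibromin recruited by SPRED proteins, by 0.38 ± 0.12. MKNK1, a kinase reported to stabilise SPRY2, fell by 0.30, the caveolin CAV1 by 0.26 and the ubiquitin ligase SIAH2 by 0.25. With the mean of all kept probe sets NF1 (0.09), SIAH2 (-0.11) and MKNK1 (-0.09) did not pass, and 1 gene of this list fell. CAV1 did not pass with a common median (-0.17), under which 8 genes of this list rose. Leaving out vehicle replicate 1 or 2 also lost NF1 (adjusted p = 0.0528 and 0.0510, limma), and this list had 3 rises without either.

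Receptors and adaptors upstream of RAS had 3 rises and 4 falls among 15 tested of 19 (median 0.06), a share of 46.7% against 47% of all genes, so the count says nothing particular to them. FGFR1 rose by 1.13 ± 0.10 and EGFR by 1.01 ± 0.11, both receptors whose signalling Sprouty proteins restrain, while FGFR2 fell by 0.46 (SE 0.11), the phospholipase PLCG1 by 0.36 and the adaptor FRS3 by 0.34. IGF1R was 0.45 ± 0.18 higher (adjusted p = 0.0438, limma), but 0.26 higher and not past the threshold without PMA replicate 2 (adjusted p = 0.173), without the 3 arrays that deviated together (0.26) or with array weights (0.26). In 10 other settings it stayed at 0.38 to 0.50 and missed the threshold, with an adjusted p of 0.0505 to 0.124 in limma. With a common median 7 genes of the list rose. The cascade from RAS to ERK itself had 4 rises and 6 falls among 15 tested of 21 (median -0.16). The share that passed was 66.7%, against 47% of all genes. PEA15, which holds ERK in the cytoplasm, rose by 0.64 ± 0.06 and the small GTPase RRAS2 by 0.45 ± 0.09. SOS2, an exchange factor for RAS, fell by 0.51, and the GTPases RRAS and MRAS fell by 0.47 and 0.45. SOS1 rose by 0.35 ± 0.09 on its brightest probe set but fell by 0.28 with the mean of its kept probe sets (adjusted p = 0.00728, limma), so its direction depends on the probe set. With the stricter filter 3 genes of the cascade fell.

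Other feedback inhibitors of receptor and ERK signalling had 9 rises and 1 fall among 14 tested of 18 (median 0.99). The share that passed was 71.4%, against 47% of all genes. There were 2 falls for the mean of kept probe sets or without PMA replicate 4. The phosphatases DUSP6 and DUSP1, which inactivate MAP kinases, rose by 3.61 ± 0.13 and 2.19 ± 0.07. DUSP2, of the same family, lay below the 40th percentile on all vehicle arrays and rose by at least 2.54 against it (means 6.62 with PMA and 3.68 with vehicle as measured). IL17RD, known as SEF and an inhibitor of FGF signalling, fell by 0.59 (SE 0.10, adjusted p = 9.76e-05, limma), in the same direction as SPRY1. Transcription factors and targets downstream of ERK had 16 rises and 0 falls among 20 tested in limma (median 1.12). With the mean of kept probe sets there was 1 fall. The share that passed was 80%, against 47% of all genes. In limma 17 of the 20 (85%) had an unadjusted p under 0.05, against 53.1% of all genes. The ETS factor ELK4, named for this reason after its values were seen, was tested only because of its arrays with PMA, and without it 15 of 19 rose. FOS at 5.65 ± 0.11, EGR1 at 5.63 ± 0.13 and IER3 at 4.22 ± 0.15 led them. The lists were not tested against each other.

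**Figure D3:**
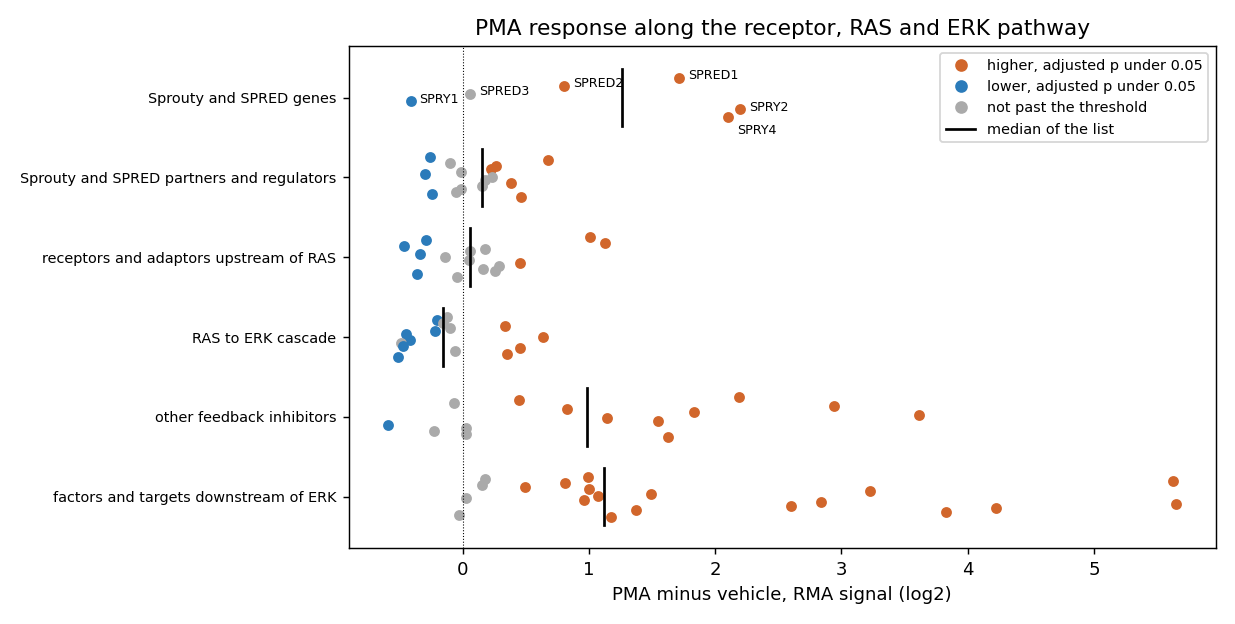
Log2 difference between PMA and vehicle (horizontal axis) for the 6 Sprouty and SPRED genes and the 5 pathway lists (rows), each point 1 gene, coloured by call at an adjusted p under 0.05, with the list median as a black line. The medians run from -0.16 in the RAS to ERK cascade to 1.26 in the Sprouty and SPRED genes.

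DOC plus PMA against DOC asks what the phorbol ester did when the steroid was present. It shares no array with the comparison of PMA and vehicle. The same 5 genes passed in the same directions, where 15.7% of all genes rose and 26.9% fell, 42.6% together. SPRY4 among them was tested only because of its arrays with PMA, so its passing adds nothing beside that share. SPRY2 went from 6.71, 6.66, 6.64 and 6.73 with DOC to 8.79, 8.87, 8.74 and 8.87 with both, a rise by 2.13 ± 0.07 or 4.38-fold (adjusted p = 1.22e-13, limma). SPRY4 went from 3.77, 3.11, 3.27 and 3.17 to 4.85, 5.39, 5.36 and 5.17, and all DOC arrays were below the 40th percentile. It rose by at least 1.10, or at least 2.14-fold, against that percentile, and the measured means differed by 1.86 ± 0.16 (adjusted p = 2.84e-08, limma). The groups did not overlap in either gene, as in 38.9% of all genes.

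SPRED1 read 6.58, 6.32, 6.46 and 6.21 with DOC and 7.94, 8.09, 7.76 and 7.97 with both, 1.55 ± 0.12 or 2.92-fold higher (adjusted p = 1.84e-08, limma). SPRED2 read 7.71, 7.43, 7.53 and 7.50 with DOC and 8.25, 8.52, 8.12 and 8.38 with both, 0.77 ± 0.09 or 1.71-fold higher. Both again separated fully between the groups. SPRY1 read 6.78, 6.77, 6.81 and 6.69 with DOC and 6.28, 6.50, 6.46 and 6.48 with both, and fell by 0.33 (SE 0.07, 1.26-fold lower, adjusted p = 0.000764, limma). SPRED3 read 4.16, 4.14, 4.25 and 4.04 with DOC and 4.29, 4.12, 4.02 and 4.15 with both, with overlapping groups, and did not pass (adjusted p = 0.998, limma). At the level of probe sets 8 rose and 2 fell here too, where 36.8% of kept probe sets passed. The 8 again include 11754344_s_at of SPRY4 and 11734828_at of SPRED1. Both were kept only through arrays with PMA, so their rises add nothing to the others. Without the 3 arrays that deviated together, the differences were 2.12 for SPRY2, 1.94 for SPRY4, 1.56 for SPRED1, 0.76 for SPRED2 and -0.35 for SPRY1, and all 5 passed.

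In the pathway lists, 6 of 15 partners and regulators rose and 2 fell with PMA in the presence of DOC, 53.3% together. Across all genes 42.6% passed. Among receptors and adaptors 2 of 15 rose and 4 fell (40%), near that share, and in the cascade 4 of 15 rose and 5 fell (60%). The other feedback inhibitors had 9 rises and 1 fall among 14 (71.4%). The transcription factors and targets downstream of ERK had 17 rises and 0 falls among 20 (85%) in limma. Of these 20, 18 (90%) had an unadjusted p under 0.05, against 49% of all genes. The 20 include ELK4, which was tested only because of its arrays with PMA.

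DOC against vehicle and DOC plus PMA against PMA ask what the steroid did without and with the phorbol ester. None of the 6 genes passed in either comparison in limma, and 0 had an unadjusted p under 0.05 in either. The background was low as well, with 0.12% of genes called for DOC against vehicle and 0.384% for DOC plus PMA against PMA. On the same arrays the genes set as steroid-responsive controls rose with DOC. PDK4, which encodes a pyruvate dehydrogenase kinase, rose by 1.92 ± 0.15 without PMA and by 3.09 ± 0.15 with it. It had the largest rise of all genes tested, rank 1 in both comparisons. SGK1 rose by 0.93 ± 0.08 and 0.96 ± 0.08, and FKBP5 by 0.58 ± 0.08 and 0.51 ± 0.08.

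Without PMA, the DOC differences were 0.06 ± 0.07 for SPRY2, -0.05 ± 0.16 for SPRY4, -0.04 ± 0.07 for SPRY1, 0.05 ± 0.12 for SPRED1, -0.09 ± 0.09 for SPRED2 and 0.09 ± 0.09 for SPRED3. The 95% intervals were -0.09 to 0.22 for SPRY2, -0.19 to 0.10 for SPRY1, -0.38 to 0.28 for SPRY4, -0.21 to 0.31 for SPRED1, -0.28 to 0.10 for SPRED2 and -0.09 to 0.27 for SPRED3. In each of the 6 genes the DOC and vehicle arrays overlapped, while 2.33% of all genes separated.

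With PMA present, SPRY4 had the lowest difference, at -0.28 ± 0.16 (95% interval -0.61 to 0.04, unadjusted p = 0.0844, adjusted p = 1.00, limma). Its DOC plus PMA arrays reached 5.39 and its PMA arrays went down to 5.37, so the groups overlapped, as they did in the other 5 genes. Arrays of these groups with equal replicate numbers deviated together, and within such pairs SPRY4 differed with DOC by -0.57, -0.33, -0.01 and -0.23. SPRED2 differed by -0.12, -0.06, -0.18 and -0.11. SPRED1 was lower in 3 of 4 pairs, SPRY2 and SPRED3 in 2 and SPRY1 in 1. No share over all genes is set beside these pairs, so they are description only. With the replicate number as a block in these groups alone, neither SPRY4 nor SPRED2 passed (adjusted p = 0.363 for SPRY4 and 0.623 for SPRED2, limma). Between the unpaired groups, 2.73% of all genes separated. SPRED1 was at -0.12 ± 0.12 and SPRED2 at -0.12 ± 0.09, with intervals of -0.38 to 0.14 and -0.31 to 0.07. SPRY2 was at -0.001 with an interval of -0.16 to 0.15, SPRY1 at 0.04 ± 0.07 and SPRED3 at 0.03 ± 0.09. For SPRY2 an effect of DOC beyond these bounds is outside the interval, whereas for SPRY4 the interval is wide. The 95% intervals do not take the number of genes into account.

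The interaction compares the DOC difference with PMA to that without. It passed in 0 of the 6 genes in limma (0 with an unadjusted p under 0.05, and 0.088% of all genes called). Estimates ran from -0.24 ± 0.22 for SPRY4 to 0.08 ± 0.10 for SPRY1, with -0.17 ± 0.18 for SPRED1. Its SE is larger than that of a difference of 2 groups, with medians of 0.124 and 0.0879 over all genes, so a moderate interaction could be missed. For DOC plus PMA against PMA, 0 of the 79 pathway genes tested passed in limma, while 3 partners and regulators, 1 other feedback inhibitor and 1 downstream gene had an unadjusted p under 0.05, 6.33% of the 79 against 4.35% of all genes. Of the same genes only PHLDA1, a pleckstrin homology protein induced by ERK, passed for DOC against vehicle (0.63 ± 0.09, adjusted p = 0.00250, limma) and for the interaction (-0.77 ± 0.13, adjusted p = 0.0194). The PHLDA1 interaction was lost without vehicle replicate 2 or 4, DOC replicate 2 or 4 or DOC plus PMA replicate 4 (adjusted p = 0.0536 to 0.0726), without the 3 arrays that deviated together (0.0550), and with the mean of its probe sets (-0.71, adjusted p = 0.116).

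**Figure D4:**
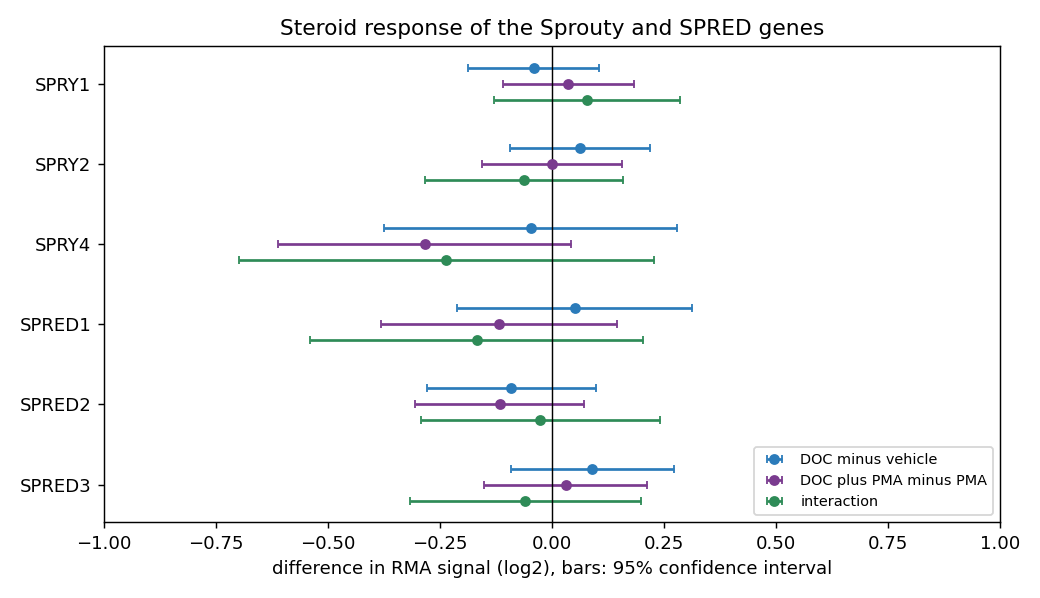
Log2 difference (horizontal axis) for DOC minus vehicle (blue), DOC plus PMA minus PMA (purple) and the interaction (green) in each of the 6 genes, with 95% intervals from limma. All 18 intervals include 0, and those of SPRY4 are the widest.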

How the data were processed

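Per the labels' protocols, biotinylated RNA for the arrays was made from 100 ng of total RNA. The deposited values are log2 signals. The submitters' processing notes name RMA and Affymetrix Expression Console, with versions not given in the sources used. RMA forces arrays to a near-common distribution, so a shift of all transcripts one way cannot be seen. The table held 0 columns outside the 16 arrays. The platform annotation names 1 gene for 44988 probe sets, several for 1832 and none for 2473, and 44961 matched a current gene.

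Group means of 16 arrays were fitted with lmFit and eBayes in limma 3.58.1 (R 4.3.3), after a check on simulated data. Promoter windows came from a RefSeq table and were matched by symbol for all 6 genes. Arrays have no read depth, and their number limits the precision. Members, lists and tests were chosen with earlier results of these data known. Named are all members and their probe sets, up to 3 highest and 3 lowest called genes of each list for PMA against vehicle, any list gene called for DOC or the interaction, and the 3 genes nearest to each member. Between PMA and DOC plus PMA, all 4 pairs of arrays with equal numbers deviated together (correlations 0.157 to 0.549); between other groups at most 3 of 4 exceeded 0.1. This pairing by the labels' numbers rests on that check, and the block is an alternative. Alternatives were other scalings, filters and probe set rules, array weights, the replicate number as a block, fewer groups and leaving out arrays. The last included the 3 arrays that deviated together, chosen after seeing the data.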

Additional observations from a re-analysis of the deposited data

Results flagged for a closer look

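For SPRY2 with PMA, replicate 4 at 8.83 lay apart from the other 3 arrays relative to the group's very small spread. For SPRY4 with PMA, replicate 2 at 5.72 lay apart from the others, and it is 1 of the 3 arrays that deviated together. These are 2 of 44 groups of 4 arrays looked at over the kept probe sets, and chance marks about 1 in 20 such groups. PHLDA1 differed between the DOC response with and without PMA, with an interaction of -0.77 on the log2 scale.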

How the results depend on the processing

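The 5 Sprouty and SPRED genes past the threshold in both PMA comparisons, and the 0 in both DOC comparisons and the interaction, were the counts in every alternative run, except that 4 passed in both PMA comparisons with the 60th percentile filter, which left SPRY4 and SPRED3 untested. The PMA difference ranged from 2.12 to 2.28 for SPRY2, 1.97 to 2.19 for SPRY4, 1.40 to 1.81 for SPRED1, 0.70 to 0.89 for SPRED2 and -0.60 to -0.32 for SPRY1. With the replicate number as a block, 6108 genes passed for PMA alone and 5574 for PMA in the presence of DOC, 16 for DOC alone, 56 for DOC in the presence of PMA and 15 by the interaction, and the block changed no call of the 6 genes or of the named pathway genes. Array weights gave 89 genes for DOC in the presence of PMA and 25 by the interaction, against 48 and 11. Leaving out 1 array gave 31 to 53 and 5 to 14, with the lowest counts without DOC plus PMA replicate 4 and DOC replicate 4. The cause of these shifts was not tested.

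Signs turned only in differences that had not passed, apart from SOS1, at -0.28 with the mean of kept probe sets. That rule also turned SPRED1 for DOC against vehicle (-0.046) and, for the interaction, SPRED1 (0.0078) and SPRED2 (0.016). Array weights turned SPRY2 for DOC plus PMA against PMA (0.0096), SPRED3 for DOC plus PMA against DOC (0.0077) and SPRED2 for the interaction (0.092). SPRED3 for DOC plus PMA against DOC was 0.012 after cyclic loess and 0.077 with a common median. Without the 3 arrays that deviated together, SPRED3 was at -0.0036 for PMA and 0.011 for DOC plus PMA against DOC, SPRED1 at -0.014 for DOC, and the interactions of SPRED2 and SPRED3 at 0.011 and 0.014. Leaving out 1 array, SPRED3 ran from -0.0036 to 0.11 for PMA and -0.049 to 0.044 for DOC plus PMA against DOC. For DOC against vehicle, SPRY2 ran from -0.011 to 0.13, SPRY4 from -0.19 to 0.041 and SPRED1 from -0.017 to 0.14. For DOC plus PMA against PMA, SPRY1 ran from -0.014 to 0.086, SPRY2 from -0.019 to 0.023 and SPRED3 from -0.022 to 0.093. For the interaction, SPRY2 ran from -0.13 to 0.0096, SPRED2 from -0.093 to 0.038 and SPRED3 from -0.11 to 0.0033.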
